A study of Mus musculus with 16 samples.

Results

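The 7 genes described here are H2-Aa, H2-Ab1, H2-Eb1, H2-DMa, H2-DMb1, Cd74 and Ciita, which make, load and switch on the MHC class II system of the mouse. They were taken by gene symbol from the 55426 genes of the deposited tables, and all 7 were among the 18833 genes with enough counts to be tested. RNA came from whole ovaries of female C57BL/6NHsd mice, each from a different animal, in 4 groups of 4. The study asked how the ovary differs during testosterone treatment and after it has ended. The On T mice had weekly injections of 0.9 mg testosterone enanthate, a slow-release testosterone ester, over 6 weeks and were sampled when 16 weeks old. The Post T mice had the same 6 weeks of injections, which were then stopped, and were sampled after 4 estrous cycles, when 24 to 28 weeks old. Sesame oil alone went to the controls, namely Control for On T (16 weeks old) and Control for Post T (24 to 28 weeks old). Oil is the carrier of the injections. Every mouse was in diestrus, the resting stage of the cycle, when the ovary was taken. In a whole ovary fewer cells of a type and less RNA per cell cannot be told apart.

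MHC class II molecules are pairs of an alpha and a beta chain that hold peptides from swallowed proteins at the surface of dendritic cells, macrophages and B cells for CD4 T cells to inspect. The invariant chain, encoded by Cd74, fills the groove during assembly, and the heterodimer of H2-DMa and H2-DMb1 later swaps its last fragment for antigenic peptides. Ciita is a coactivator that binds no DNA itself but sits on factors assembled at X and Y boxes upstream of these genes, and it is known as the master switch of the system. The ovary holds resident macrophages and dendritic cells, which are known for clearing regressing corpora lutea and atretic follicles.

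In these tables H2-Aa is ENSMUSG00000036594 and spans 34282744 to 34287823 on the minus strand of chromosome 17 (GRCm38). H2-Ab1 (ENSMUSG00000073421, 34257689 to 34269419), H2-Eb1 (ENSMUSG00000060586, 34305867 to 34316674), H2-DMa (ENSMUSG00000037649, 34119541 to 34139101) and H2-DMb1 (ENSMUSG00000079547, 34153072 to 34160230) lie on the plus strand of the same chromosome. Ciita (ENSMUSG00000022504) spans 10480059 to 10528418 on the plus strand of chromosome 16. Cd74 is ENSMUSG00000024610. All 7 are annotated as protein-coding, and their values are sums over exons. Of the exon bases of H2-DMa, 10.4% overlap Brd2, a broadly expressed chromatin reader on the opposite strand, and 3.45% of those of Ciita overlap Dexi. The sources used here do not state whether counting used the strand.

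The sequences below show matches to the X and Y boxes, through which CIITA is known to act, though its action was not measured here. They come from RefSeq promoters (GRCm38.p6, 250 bases before to 50 after a start), where the letters CNNGNAAC were searched as the core of the X box and TGATTGG as the Y box, with 15 to 40 bases between them. These letters were chosen after the sequences had been seen. Of 11 genes looked up, which were Ciita and class II genes without Cd74, 8 had an entry. Of these, 6 held the X core followed by the Y box on the gene's own strand. H2-Ab1, H2-Ea and Ciita had no entry. Across all 32851 promoters 39.1% held the X core on either strand and 7.82% the Y box. The ordered pair occurred in 0.195% on either strand and in 0.0974% on the sense strand. Each line reads 5′ to 3′ on the gene's strand, with the matched X and Y letters in capitals.
H2-Aa, chr17:34287863-34287911, minus strand: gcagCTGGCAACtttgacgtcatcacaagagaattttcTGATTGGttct
H2-Eb1, chr17:34305769-34305816, plus strand: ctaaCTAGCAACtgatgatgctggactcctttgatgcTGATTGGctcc
H2-DMb1, chr17:34153090-34153119, plus strand, X core only: ttacCTAGTAACtgatgatgctaggctgat
H2-Eb2, chr17:34325536-34325583, plus strand: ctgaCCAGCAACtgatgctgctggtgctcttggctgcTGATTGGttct
H2-Ob, chr17:34238811-34238856, plus strand: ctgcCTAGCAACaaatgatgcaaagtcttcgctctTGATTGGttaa

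The spacing between the X core and the Y box was 23 to 26 bases in the 6 genes with the pair, which were H2-Aa, H2-Eb1, H2-DMb1, H2-Eb2, H2-Oa and H2-Ob. In H2-DMb1 the whole stretch from the X core to the Y box, 49 of 49 bases, lies in an exon of the GENCODE annotation, so only 30 bases of it are printed and its line ends before the Y box. In H2-DMa, both promoter entries held the X core without the exact Y letters, and these letters are not in those windows. The H2-DMb2 entry held the X core and the Y letters on its own strand, but not as such a pair. The genes printed with the same element did not share a level, since H2-Aa and H2-Eb1 were abundant while H2-Eb2 was near the detection limit.

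Levels between genes were compared as TPM, transcript abundance scaled for gene length and library size. Averaged over the 16 libraries, Cd74 stood at 228 TPM, with 575 of the 33385 genes above 0 exceeding it. The chains of the displayed molecules followed, with H2-Aa at 111 TPM, H2-Eb1 at 107 and H2-Ab1 at 103. The peptide editor genes were about an order of magnitude lower, at 11.4 TPM each for H2-DMa and H2-DMb1, and Ciita was the lowest at 1.16 TPM. The TPM ratio of Cd74 to H2-Ab1 within a library lay between 1.96 and 2.45 in all 16 libraries, and that of H2-Aa to H2-Ab1, the partners of the I-A molecule, between 0.943 and 1.17. The ratio of Cd74 to Ciita ranged from 160 to 281 and that of H2-DMa to H2-DMb1, the partners of the peptide editor, from 0.863 to 1.28.

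During testosterone treatment none of the 7 genes passed the test. At a Benjamini-Hochberg threshold of 0.05 in edgeR's quasi-likelihood F test, 0 of 7 were called in the On T group, against 9.27% of all genes tested. No member's On T libraries lay apart from their controls, which 7.22% of all genes did on the higher side and 7.92% on the lower. The count was also 0 at an unadjusted p under 0.05, with DESeq2 and with limma, for which the shares of all genes are not given here. The fitted differences ranged from -0.30 to 0.08 on the log2 scale with a median of -0.16, where the median of all genes was -0.00519. After testosterone had been stopped, the genes of the peptide editor passed and the others did not, which does not show that they differed from each other. The call of H2-DMa was close to the threshold and ended when some single libraries were left out. Its 95% interval of the fold before adjustment (1.13 to 1.76) overlapped those of genes that did not pass, such as Ciita (0.931 to 1.71). H2-DMb1 rose 1.82-fold and H2-DMa 1.41-fold in Post T, which made 2 of 7 called and both higher, against 12.3% of all genes called and 7.49% called higher. The Post T differences of the 7 ranged from 0.11 to 0.86 on the log2 scale with a median of 0.33, against -0.0101 over all genes.

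**Figure D1:**
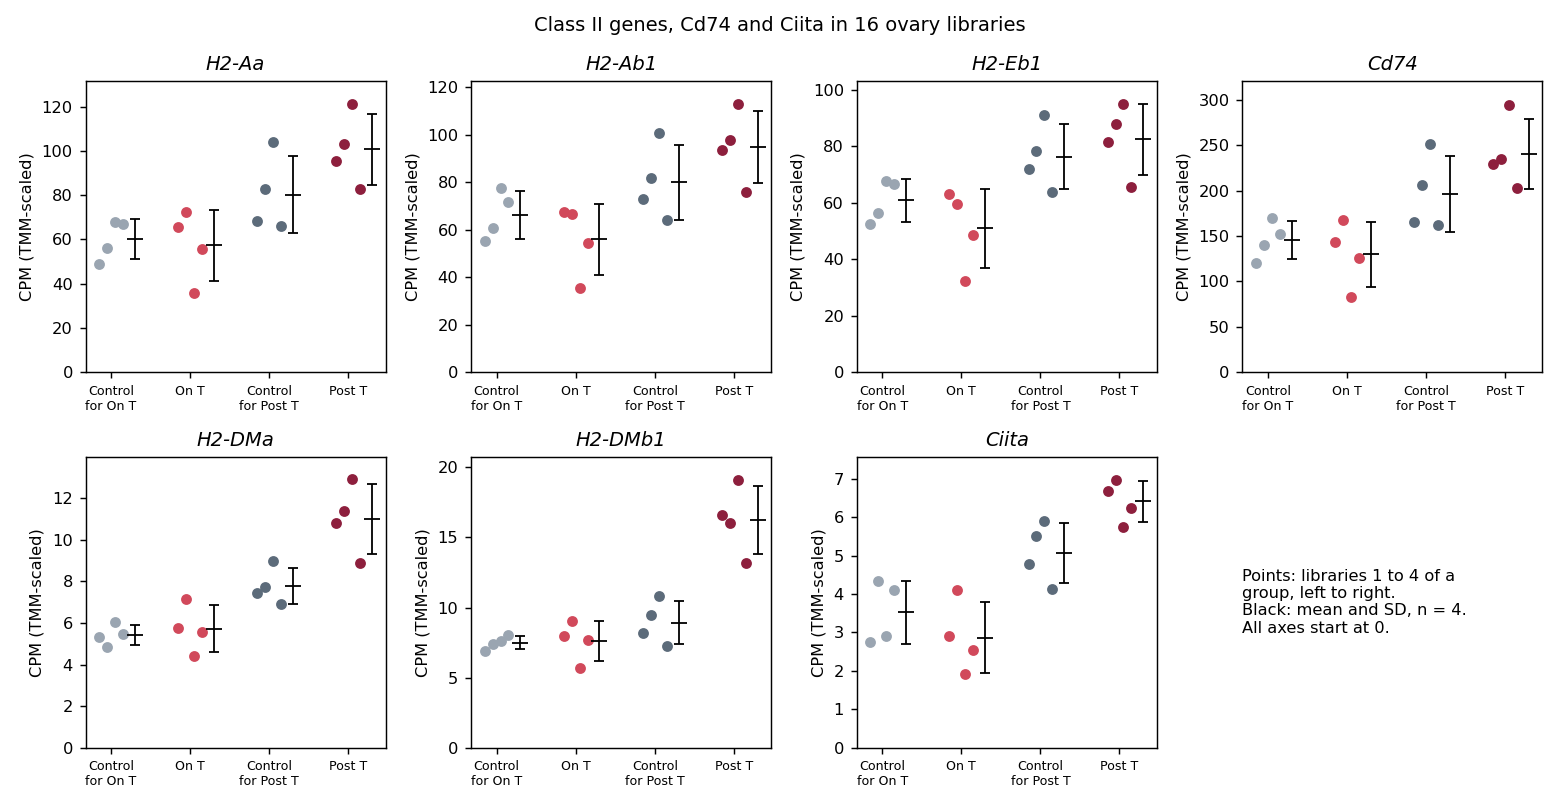
Level of each gene in CPM scaled by TMM (vertical axes, starting at 0) in the 4 groups of 4 libraries, with points for libraries and black marks for the mean and SD. H2-DMb1 is the gene whose 4 Post T libraries (13.2 to 19.1) all lie above their 4 controls (7.28 to 10.8), and On T library 3 is the lowest point in every panel.

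Levels of 1 gene across libraries are given as CPM, counts scaled to library size with TMM factors. The alpha chain gene H2-Aa stood at 48.9, 56.2, 67.9 and 67.0 CPM in Control for On T libraries 1 to 4 and at 65.7, 72.2, 35.6 and 55.4 in On T. It stood at 68.2, 82.6, 104 and 65.9 CPM in Control for Post T and at 95.6, 103, 121 and 82.9 in Post T. Its groups overlapped in each comparison, with On T library 3 far below the other On T libraries. The log2 fold change of H2-Aa was -0.07 in On T (± 0.20 SE, adjusted p = 0.881 by edgeR) and 0.33 in Post T (± 0.19 SE, adjusted p = 0.353 by edgeR).

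H2-Ab1 encodes the beta chain that pairs with H2-Aa. It stood at 55.3, 60.7, 77.5 and 71.8 CPM in Control for On T and at 67.6, 66.6, 35.4 and 54.3 in On T. In Control for Post T it stood at 72.9, 81.7, 101 and 64.3 CPM, and in Post T at 93.6, 97.7, 113 and 76.1. Treated and control libraries overlapped in both comparisons, and the same On T library was the lowest. The log2 fold change of H2-Ab1 was -0.24 in On T (± 0.19 SE, adjusted p = 0.492 by edgeR) and 0.25 in Post T (± 0.19 SE, adjusted p = 0.498 by edgeR).

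H2-Eb1 encodes the beta chain of the other class II molecule, I-E. C57BL/6 mice are known to lack I-E at the cell surface because the gene of its alpha chain, H2-Ea, is defective in this strain. H2-Eb1 stood at 52.5, 56.4, 67.6 and 66.6 CPM in Control for On T and at 63.2, 59.5, 32.1 and 48.7 in On T. It stood at 71.9, 78.4, 91.2 and 63.9 CPM in Control for Post T and at 81.4, 87.9, 95 and 65.5 in Post T. Its 4 groups overlapped in each comparison, and its Post T difference was the smallest of the 7, with a log2 fold change of 0.11 (± 0.18 SE, adjusted p = 0.791 by edgeR). In On T the log2 fold change was -0.26 (± 0.18 SE, adjusted p = 0.435 by edgeR). H2-Ea, listed as H2-Ea-ps and annotated as a polymorphic pseudogene, had 0 counts in 15 of 16 libraries.

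Cd74, the invariant chain, is encoded on chromosome 18. It stood at 120, 140, 170 and 152 CPM in Control for On T and at 143, 168, 82.3 and 126 in On T. In Control for Post T it stood at 165, 206, 252 and 162 CPM, and in Post T at 229, 235, 295 and 203. Post T libraries were high, yet Control for Post T library 3 lay above 3 of them. The log2 fold change of Cd74 was -0.16 in On T (± 0.19 SE, adjusted p = 0.675 by edgeR) and 0.29 in Post T (± 0.19 SE, adjusted p = 0.415 by edgeR).

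H2-DMb1, the beta chain of the peptide editor, showed the largest difference among the 7. It stood at 6.91, 7.43, 7.59 and 8.03 CPM in Control for On T and at 7.96, 9.07, 5.72 and 7.71 in On T. It stood at 8.18, 9.46, 10.8 and 7.28 CPM in Control for Post T and at 16.6, 16.0, 19.1 and 13.2 in Post T. Every Post T library lay above every control, as in 9.62% of all genes tested, while the On T libraries lay on both sides of theirs. The mean was 8.93 ± 1.53 CPM in Control for Post T and 16.2 ± 2.38 in Post T (SD, n = 4; log2 fold change 0.86 ± 0.15 SE, adjusted p = 0.000867 by edgeR), a fold of 1.82 with a 95% interval of 1.45 to 2.27 before adjustment. In On T the log2 fold change was 0.02 (± 0.15 SE, adjusted p = 0.951 by edgeR). The Post T call remained when any 1 library was left out, with log2 fold changes of 0.772 to 0.986 and edgeR adjusted p of 0.000655 to 0.00472.

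H2-DMb1 has a close copy, H2-DMb2, beside it on chromosome 17, which encodes an alternative beta chain. Of the 150-base windows of H2-DMb1 transcripts 4.71% occur unchanged in H2-DMb2, and 22.7% of the 50-base windows do, so the split of reads between these genes is uncertain. H2-DMb2 averaged 1.00 ± 0.28 CPM in Control for Post T and 1.23 ± 0.335 in Post T (SD, n = 4) and did not pass (log2 fold change 0.28 ± 0.29 SE, adjusted p = 0.643 by edgeR). In TPM, H2-DMb1 exceeded H2-DMb2 by 6.81 to 22 times in the 16 libraries.

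H2-DMa, the alpha chain of the peptide editor, stood at 5.34, 4.85, 6.03 and 5.48 CPM in Control for On T and at 5.77, 7.17, 4.42 and 5.55 in On T. It stood at 7.44, 7.74, 8.97 and 6.93 CPM in Control for Post T and at 10.8, 11.4, 12.9 and 8.87 in Post T. Of the Post T libraries 3 lay above all controls, and library 4 lay just under Control for Post T library 3. The mean went from 7.77 ± 0.867 to 11 ± 1.65 CPM in Post T (SD, n = 4; log2 fold change 0.49 ± 0.15 SE, adjusted p = 0.0397 by edgeR), a fold of 1.41 with a 95% interval of 1.13 to 1.76. This call was close to the threshold. It ended without Control for Post T library 1, 2 or 4 (edgeR adjusted p = 0.0752, 0.0714 and 0.122) and without Post T library 1, 2 or 3 (edgeR adjusted p = 0.0648, 0.0845 and 0.127). It ended too with limma on log2(TPM + 1) (adjusted p = 0.0642), with no filter on low counts (edgeR adjusted p = 0.0542) and when only the 8 libraries of this comparison were fitted (edgeR adjusted p = 0.0541). Brd2, which overlaps H2-DMa, had a log2 fold change of -0.08 in Post T (± 0.07 SE, adjusted p = 0.577 by edgeR).

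Ciita, the coactivator, rested on 66 to 277 counts per library. It stood at 2.74, 4.34, 2.91 and 4.11 CPM in Control for On T and at 2.91, 4.10, 1.91 and 2.54 in On T. In Control for Post T it stood at 4.79, 5.50, 5.89 and 4.13 CPM, and in Post T at 6.69, 6.96, 5.74 and 6.25. Post T library 3, the highest for the 6 other genes, was the lowest of its group for Ciita and lay below 1 control. The log2 fold change of Ciita was -0.30 in On T (± 0.21 SE, adjusted p = 0.456 by edgeR) and 0.34 in Post T (± 0.21 SE, adjusted p = 0.379 by edgeR). Dexi, on the opposite strand, had a log2 fold change of 0.16 in Post T (± 0.10 SE, adjusted p = 0.403 by edgeR).

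A p that missed the threshold does not show that these levels were equal. For the 7 genes in On T the 95% intervals of the fold, before adjustment, reached from 0.595 to 1.32. For H2-Aa, H2-Ab1, H2-Eb1, Cd74 and Ciita in Post T they reached from 0.833 to 1.71. Changes larger than these bounds lay outside the intervals, and smaller ones were not resolved with 4 libraries per group.

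**Figure D2:**
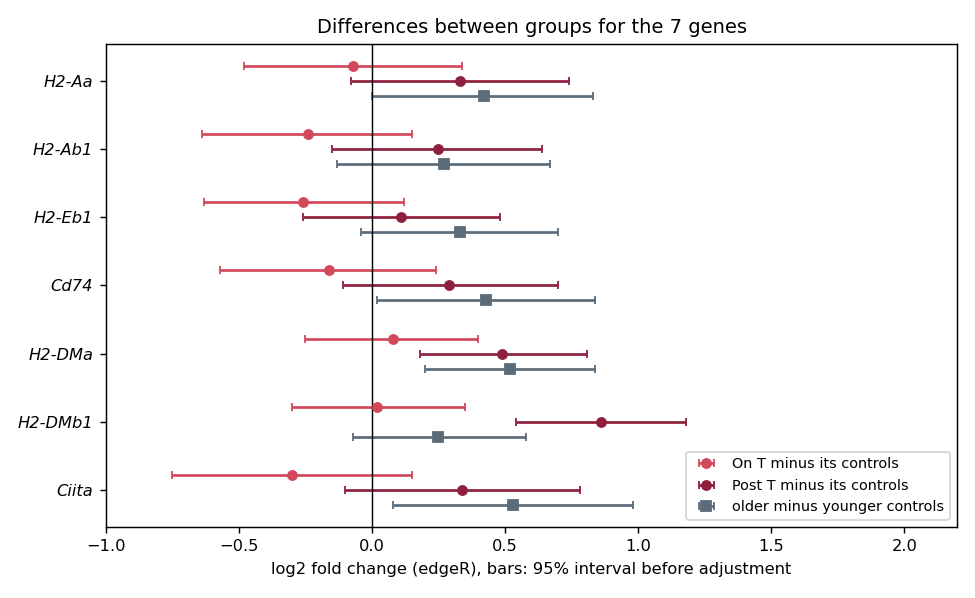
Fitted log2 fold changes of the 7 genes (horizontal axis) with 95% intervals before adjustment, for On T against its controls, for Post T against its controls and for Control for Post T against Control for On T. The Post T point of H2-DMb1 (0.86) lies apart from the others, the On T points lie between -0.30 and 0.08, and the points for the controls lie between 0.25 and 0.53.

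Whether the Post T effect differed from the On T effect was tested as a contrast of its own. These cohorts also differ in age, which cannot be told apart from the time since treatment. Of the 7 genes 1 passed, against 3.25% of all genes tested. This was H2-DMb1, with a difference of effects of 0.84 on the log2 scale (± 0.22 SE, adjusted p = 0.0442 by edgeR). The other 6 genes had differences of 0.37 to 0.63, all in the same direction, and edgeR adjusted p of 0.345 to 0.569. The call of H2-DMb1 was weak. It ended when any of 13 of the 16 libraries was left out, which were all but On T library 2, Control for Post T library 3 and Post T library 4, and edgeR adjusted p reached 0.0943.

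The older controls were also set against the younger ones. These groups differ in age and in cohort, which cannot be told apart. All 7 genes had higher means in the older controls, by 0.25 to 0.53 on the log2 scale. With edgeR 0 of 7 passed, and 0% of all genes tested did. At an unadjusted p under 0.05 the count was 4 of 7. The share of all genes under that p is not given here, so this count is not a result about the 7. DESeq2 and limma called 0 of the 7, though DESeq2 did call other genes, such as Lyz2 (DESeq2 adjusted p = 0.00238). For H2-DMa every older control (6.93 to 8.97 CPM) lay above every younger one (4.85 to 6.03), as in 3.28% of all genes tested, with a log2 difference of 0.52 (± 0.15 SE, adjusted p = 0.252 by edgeR). For Ciita the difference was 0.53 (± 0.21 SE, adjusted p = 0.399 by edgeR), from 3.53 ± 0.815 to 5.08 ± 0.778 CPM (SD, n = 4).

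Ordered by mean CPM, On T was the lowest group and Post T the highest for H2-Aa, H2-Ab1, H2-Eb1, Cd74 and Ciita, with Control for On T and Control for Post T between them. For H2-DMa and H2-DMb1 the order of the lower groups was turned, with Control for On T at the bottom. Neighbours in these orders overlapped, with the single exception of Control for Post T and Post T for H2-DMb1. From the lowest to the highest of the 16 libraries the CPM of a gene differed 2.91-fold (H2-DMa) to 3.65-fold (Ciita).

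The genes moved together from ovary to ovary inside the groups. On T library 3 was the lowest of all 16 for each of the 7, on average 0.534 log2 units under its group's mean. Control for Post T library 3 was the highest of its group for all 7 and library 4 the lowest. Post T library 3 was the highest of its group for 6 of the 7. The mice of both libraries numbered 3 were 28 weeks old, the oldest of their groups. With age as a covariate the Post T log2 fold change was 0.859 for H2-DMb1 (adjusted p = 0.00029 by edgeR) and 0.489 for H2-DMa (adjusted p = 0.0254 by edgeR). Without On T library 3 the On T log2 fold changes were between -0.134 (Ciita) and 0.193 (H2-DMa), and those of H2-Aa and Cd74 turned positive (0.116 and 0.0165), with edgeR adjusted p of 0.492 to 0.968. Macrophage genes were low in the same ovary. Adgre1, the F4/80 receptor, stood at 16.3, 18.7, 9.45 and 14.0 CPM in On T libraries 1 to 4, and Csf1r, the macrophage growth factor receptor, at 32.3, 38.0, 22.2 and 31.0. C1qa, a complement subunit made by macrophages, stood at 42.3, 48.6, 23.6 and 36.7 CPM in these libraries. The part of macrophage number in the class II levels was not tested.

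Deviations of log2 CPM from the group means, over the 16 libraries, gave Pearson's r of 0.875 to 0.989 between any 2 of the 6 genes other than Ciita. Ciita followed them less closely, with Pearson's r of 0.495 (H2-DMa) to 0.676 (H2-DMb1) and Spearman's rho of 0.418 to 0.629. Over these 6 relations the adjusted permutation p was 0.0556 to 0.114 for r and 0.0901 to 0.145 for rho, so none passed. Without On T libraries 2 and 3, whose Ciita levels were farthest from the median, r was 0.00713 to 0.439. Ciita also has the fewest counts of these genes (66 to 277 per library), and the part of low counts in its lower r was not tested.

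The genes most like the class II genes were sought among 13485 tested genes with a mean of at least 1 CPM. These leave out the members themselves, predicted, Rik and unnamed genes, and pseudogenes. The measure was Pearson's r over 16 libraries with the mean of the 6 genes other than Ciita, and it includes the differences between groups. The nearest were Ms4a6b (r = 0.964), Ms4a6c (0.959), C1qa (0.951), the acid-sensing receptor gene Gpr65 (0.940), Clec4a2 (0.931), Il21r (0.923), Neurl3 (0.921) and the chemokine gene Ccl9 (0.918). Nearest to Ciita were Ms4a6b (r = 0.935), Usp12 (0.935), Fmnl1 (0.930), Cd38 (0.922) and Ggta1 (0.908). Ms4a6b led both rankings. It stood at 3.26, 3.44, 1.82 and 2.46 CPM in On T, with the dip at library 3, and did not pass in Post T (log2 fold change 0.49, edgeR adjusted p = 0.118).

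Ratios within a library do not depend on the scaling between libraries, so the 6 other genes were each divided by Cd74 in TPM. In Post T the ratio of H2-DMb1 to Cd74 was 1.48-fold higher than in its controls (log2 0.57), and all 4 treated libraries lay above all 4 controls (two-sided exact permutation p = 0.0286, the smallest that 4 against 4 allows). The ratio of H2-Eb1 to Cd74 was lower by the same criterion (log2 -0.21, exact permutation p = 0.0286). Over the 12 ratios tested in both comparisons the adjusted value of these 2 was 0.171, so neither passed. With 0.0286 as the smallest p, a ratio could pass after adjustment only if many of the 12 reached it together. Missing the threshold is therefore no sign that these ratios were equal. For H2-Aa, H2-Ab1, H2-DMa and Ciita in Post T the exact permutation p was 0.143 to 1.00, and the fold of the ratio 0.975 to 1.15. In On T the largest was H2-DMa to Cd74 (log2 0.27, exact permutation p = 0.0571, adjusted 0.229).

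Class II transcripts were then set beside genes of the cells that carry them. In TPM, Cd74 was 5.97 to 6.53 times Cd68, a lysosomal protein of macrophages, in Control for Post T and 1.12 to 1.39 times in Post T. In Control for On T the same ratio was 5.72 to 10.8, and in On T 3.04 to 3.68. Neither pair of groups overlapped. Against Csf1r the ratio of Cd74 went from 14.5 to 19.4 in Control for Post T to 9.79 to 10.9 in Post T, again without overlap, and it overlapped between On T (11.3 to 16.4) and its controls (11.7 to 17.6). Against Adgre1 the Post T ratio (24.1 to 38.9) overlapped its controls (31.6 to 40.0). The ratio thus depended on the macrophage gene chosen, and these ratios were not tested.

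**Figure D3:**
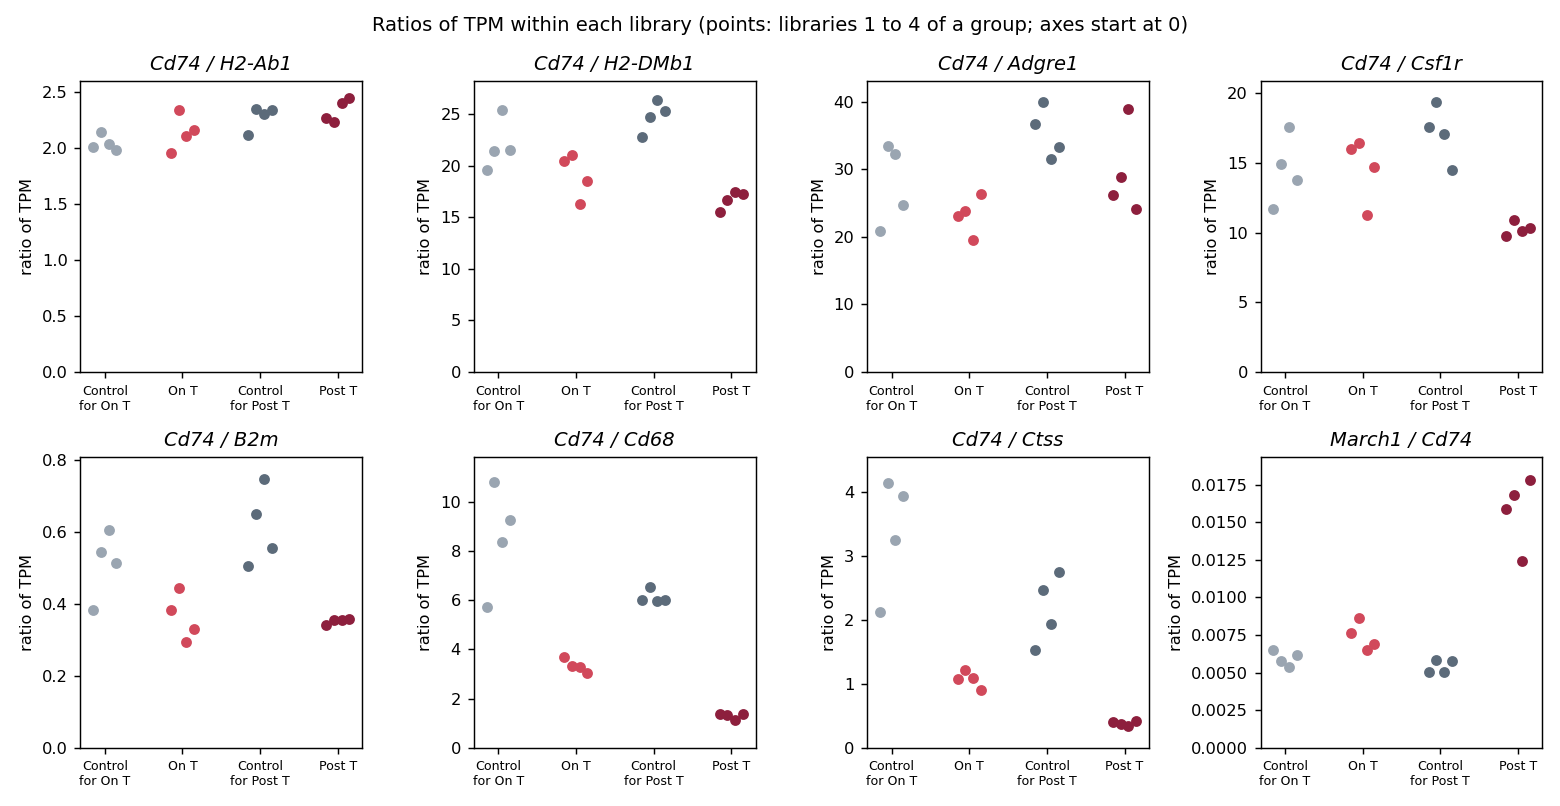
Ratios of TPM within each of the 16 libraries (vertical axes, starting at 0), by group, for Cd74 over 7 genes and for March1 over Cd74. Cd74 per Cd68 is lower in Post T (1.12 to 1.39) than in its controls (5.97 to 6.53), while Cd74 per H2-Ab1 stays between 1.96 and 2.45 in all libraries.

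Of 12 macrophage markers, 7 rose and 1 fell in Post T (median log2 fold change 1.01), and 3 rose in On T (median 0.08). Among all genes tested 12.3% were called in Post T, 7.49% were called higher there, and 9.27% were called in On T. Lyz2, lysozyme, rose by 3.03 on the log2 scale (± 0.29 SE, adjusted p = 2.02e-06 by edgeR) and Cd68 by 2.61 (± 0.23 SE, adjusted p = 8.01e-07 by edgeR) in Post T. Mertk, a receptor for engulfing dead cells, rose by 1.42 and the complement gene C1qb by 1.46. The marker that fell, Cd163, a scavenger receptor, was named after its value was seen (log2 fold change -1.92, edgeR adjusted p = 0.0246). Its call ended without Control for Post T library 2 or 3 or Post T library 1, 3 or 4 (edgeR adjusted p = 0.0639 to 0.0952). The summed level of the 12 markers was 499 to 1100 CPM in Control for Post T and 3290 to 5000 in Post T, and 354 to 509 in Control for On T and 545 to 1000 in On T. Lyz2 made up most of the Post T sum, and the other 11 summed to 272 to 433 CPM in Control for Post T and 683 to 977 in Post T. Their part in the class II values was not tested.

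Of 11 dendritic cell markers tested, 1 rose in Post T (median log2 fold change 0.48), against 7.49% of all genes called higher. This was Itgax, the integrin CD11c, which activated macrophages also carry (log2 fold change 3.02 ± 0.20 SE, adjusted p = 6.54e-08 by edgeR). Flt3, the receptor that dendritic cells need to develop, had a log2 fold change of 0.68 (± 0.26 SE, adjusted p = 0.118 by edgeR), and Ccr7, which guides them to lymph nodes, of 0.74 (± 0.30 SE, adjusted p = 0.137 by edgeR). Flt3 passed without Control for Post T library 3 (log2 fold change 0.941, adjusted p = 0.0376 by edgeR) and with age as a covariate (edgeR adjusted p = 0.0497). Their summed level was 262 to 291 CPM in Control for Post T and 263 to 365 in Post T, and 226 to 378 in Control for On T and 258 to 399 in On T. Most of each sum was Fscn1, an actin-bundling protein. Without it the other 10 summed to 55.1 to 64.1 CPM in Control for Post T and 104 to 133 in Post T. Itgax alone was 5.93 to 9.80 CPM in Control for Post T and 54.9 to 76.2 in Post T. The higher sum is therefore largely that of Itgax and does not show a rise of the list as a set.

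B cells are also class II carriers, and their markers were sparse. Of 8 tested, 2 rose in Post T (median log2 fold change 0.30), against 7.49% of all genes called higher. Only 1 rose without Control for Post T library 1, 2 or 3 or Post T library 1 or 4. With at least 1 CPM asked in 4 libraries, 2 were tested and 1 rose. Cd22, a lectin of B cells, rose by 2.18 (± 0.25 SE, adjusted p = 9.42e-06 by edgeR). The antigen receptor subunit gene Cd79a had a log2 fold change of -0.78 (± 0.36 SE, adjusted p = 0.202 by edgeR). Summed levels of the 10 B cell markers were 15 to 19.7 CPM in Control for Post T and 25.3 to 37.8 in Post T, and 5.80 to 10.3 in Control for On T and 7.66 to 13.3 in On T. Without Cd22 the other 9 summed to 8.47 to 14.6 CPM in Control for Post T and 5.89 to 13.5 in Post T, which overlap. No marker of the macrophage, dendritic or B cell lists was at 0 in all libraries, and what dendritic and B cells add to the class II values was not tested.

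T cells read class II molecules through their receptor and CD4. Of 9 T cell markers 4 rose in Post T (median log2 fold change 1.09), and 2 without Control for Post T library 4, against 7.49% of all genes called higher. Among the 4 were Cd3e, a chain of the receptor complex (log2 fold change 1.19 ± 0.30 SE, adjusted p = 0.0129 by edgeR, and 0.0523 without Control for Post T library 4), and Cd5 (1.96 ± 0.38 SE, adjusted p = 0.0017 by edgeR). Of the 7 genes of class II co-receptors and costimulation that were tested, 1 rose in each comparison, and it was Cd4. Among all genes 7.49% were called higher in Post T and 9.27% were called in On T. Cd4 went from 3.67 ± 2.37 to 20.6 ± 4.04 CPM in Post T (SD, n = 4; log2 fold change 2.48 ± 0.33 SE, adjusted p = 6.13e-05 by edgeR) and from 1.87 ± 0.507 to 5.65 ± 1.43 CPM in On T (log2 fold change 1.59 ± 0.34 SE, adjusted p = 0.00662 by edgeR). The On T call of Cd4 ended with limma on log2(TPM + 1) (adjusted p = 0.144). Macrophages can carry CD4 as well. Cd86, a costimulatory ligand, had a log2 fold change of 0.62 in Post T (± 0.26 SE, adjusted p = 0.151 by edgeR), Icos of 1.14 (± 0.37 SE, adjusted p = 0.0561 by edgeR) and Cd28 of 0.69 (± 0.29 SE, adjusted p = 0.158 by edgeR). Each passed without 1 control, namely Cd86 without Control for Post T library 3 (adjusted p = 0.0393 by edgeR), Icos without library 1 (0.0486) and Cd28 without library 2 (0.0282). Icos also passed in the fit of 8 libraries (edgeR adjusted p = 0.0174) and with DESeq2 (adjusted p = 0.037).

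The remaining class II genes were low. H2-Oa and H2-Ob encode the DO dimer, an inhibitor of the peptide editor best known from B cells. H2-Ob averaged 0.964 ± 0.278 CPM in Control for On T and 0.595 ± 0.322 in On T (SD, n = 4; log2 fold change -0.71 ± 0.34 SE, adjusted p = 0.226 by edgeR). Without On T library 2 it passed (log2 fold change -1.10, adjusted p = 0.0457 by edgeR). It averaged 1.08 ± 0.0991 CPM in Control for Post T and 1.27 ± 0.423 in Post T (log2 fold change 0.22 ± 0.32 SE, adjusted p = 0.765 by edgeR). H2-Oa stayed near 0.5 CPM, from 0.486 ± 0.0406 in Control for On T to 0.529 ± 0.0981 in Post T, with a log2 fold change of 0.06 in Post T (± 0.26 SE, adjusted p = 0.937 by edgeR). H2-Eb2, a second I-E beta chain gene, had 1 to 17 counts per library and was not tested.

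Genes that load and turn over class II molecules came next. Of 8 tested, 4 rose in Post T (median log2 fold change 0.48), and in On T 1 rose and 1 fell (median -0.01). Among all genes 7.49% were called higher in Post T and 9.27% were called in On T. Ctss, cathepsin S, which trims the invariant chain, stood at 118, 90.3, 140 and 64.0 CPM in Control for Post T and at 624, 677, 924 and 526 in Post T. Its groups lay far apart (log2 fold change 2.74 ± 0.26 SE, adjusted p = 1.98e-06 by edgeR). It rose in On T too, from 49.1 ± 11.7 to 132 ± 33.5 CPM (SD, n = 4; log2 fold change 1.43 ± 0.25 SE, adjusted p = 0.0017 by edgeR). Per unit of TPM of Ctss, Cd74 was 1.52 to 2.75 in Control for Post T and 0.346 to 0.414 in Post T.

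March1 is the ubiquitin ligase that sends class II molecules from the surface to degradation. It stood at 2.57, 3.87, 3.94 and 3.17 CPM in Control for Post T and at 11.2, 12.7, 12.4 and 11.4 in Post T, with a wide gap between the groups. It rose in Post T (log2 fold change 1.81 ± 0.21 SE, adjusted p = 1.29e-05 by edgeR) and did not pass in On T (log2 fold change 0.15 ± 0.21 SE, adjusted p = 0.729 by edgeR), and the difference of effects passed (1.66 ± 0.30 SE, adjusted p = 0.00386 by edgeR). The TPM ratio of March1 to Cd74 was 0.00506 to 0.00581 in Control for Post T and 0.0124 to 0.0178 in Post T. Cd83, which blocks March1 and so stabilises class II, rose in Post T as well (log2 fold change 0.74 ± 0.23 SE, adjusted p = 0.0406 by edgeR). It was named after its value was seen, and its call ended without Control for Post T library 2 or 3 or Post T library 1, 2 or 3 (edgeR adjusted p = 0.0505 to 0.127) and with age as a covariate (edgeR adjusted p = 0.0508).

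Ifi30, the thiol reductase that opens disulfide bonds of antigens, stood at 25.7, 21.8, 23.0 and 20.2 CPM in Control for Post T and at 41.7, 40.4, 47.7 and 40.2 in Post T. The groups did not overlap (log2 fold change 0.91 ± 0.10 SE, adjusted p = 5.87e-06 by edgeR), whereas in On T the log2 fold change was -0.06 (± 0.10 SE, adjusted p = 0.784 by edgeR). Lgmn, legumain, an endopeptidase that starts invariant chain cleavage, went the other way during treatment. It stood at 240, 413, 275 and 414 CPM in Control for On T and at 91.9, 86.3, 68.0 and 91.0 in On T (log2 fold change -1.99 ± 0.19 SE, adjusted p = 5.71e-06 by edgeR). In Post T its log2 fold change was -0.14 (± 0.19 SE, adjusted p = 0.733 by edgeR), and the difference of effects was 1.85 (± 0.26 SE, adjusted p = 0.000865 by edgeR). Lgmn is made by many cell types besides antigen-presenting cells.

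**Figure D4:**
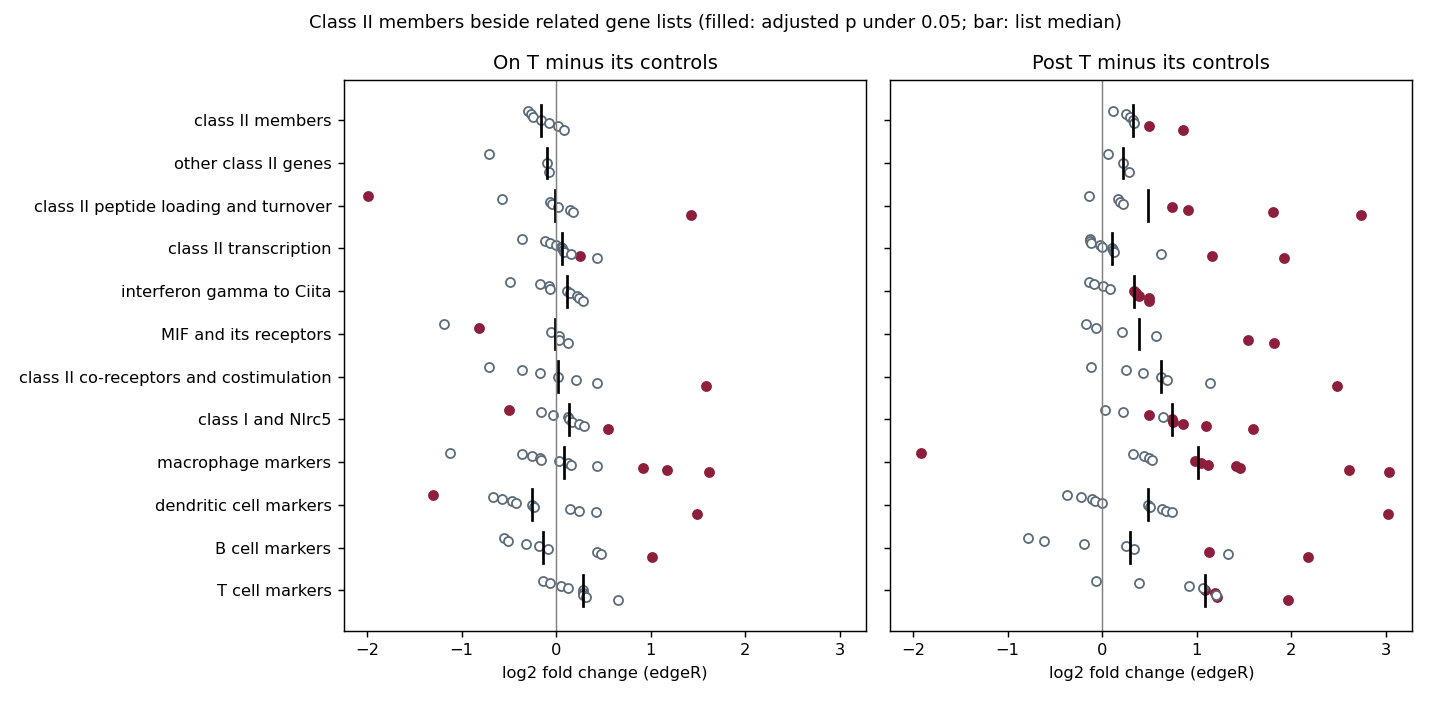
Log2 fold changes of the tested genes (horizontal axes) by list (rows), for On T and Post T, with filled points for an edgeR adjusted p under 0.05 and black bars for list medians. In Post T the class II genes have a median of 0.33, and loading and turnover (0.48), class I (0.74) and macrophage markers (1.01) are among the lists above it. Class II transcription (0.10), other class II genes (0.22) and B cell markers (0.30) lie below it.

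Of 11 genes of class II transcription, 2 rose in Post T (median log2 fold change 0.10) and 1 in On T (median 0.06). Among all genes tested 7.49% were called higher in Post T and 9.27% were called in On T. The Post T genes were Spi1, which encodes the myeloid factor PU.1 that drives a promoter of Ciita, and Irf8, its partner in myeloid cells. Spi1 stood at 11.1, 11, 12.4 and 9.03 CPM in Control for Post T and at 36.9, 41.7, 57.7 and 28.9 in Post T (log2 fold change 1.92 ± 0.22 SE, adjusted p = 9.11e-06 by edgeR). Irf8 stood at 19.9, 32.7, 25.7 and 24.7 CPM in Control for Post T and at 53.5, 55.7, 64.3 and 56.4 in Post T (log2 fold change 1.16 ± 0.14 SE, adjusted p = 2.45e-05 by edgeR). In both genes the groups lay apart, while those of Ciita overlapped. The On T gene was Nfyc, a subunit of the factor that binds the Y box TGATTGG, with a log2 fold change of 0.25 (± 0.07 SE, adjusted p = 0.0426 by edgeR), a call that ended in 11 of 16 alternatives. It ended without any 1 of 7 libraries, which were Control for On T libraries 1, 2 and 4 and all 4 On T libraries (edgeR adjusted p = 0.0536 to 0.128). Irf4 had a log2 fold change of 0.62 in Post T (± 0.31 SE, adjusted p = 0.253 by edgeR).

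Interferon gamma is the classical inducer of Ciita, in part through IRF1. Of the 9 genes of this route that were tested, 5 rose in Post T (median log2 fold change 0.34), against 7.49% of all genes called higher. The count was 3 without Control for Post T library 1 or 4 or Post T library 3 and when only the 8 libraries of this comparison were fitted, and 2 with limma on log2(TPM + 1). Irf2, a relative of Irf1 named after its value was seen (log2 fold change 0.36, adjusted p = 0.0454 by edgeR), was among the genes that lost their call in each of these. Irf1 rose by 0.50 on the log2 scale (± 0.10 SE, adjusted p = 0.00188 by edgeR). The receptor chain genes rose by 0.34 ± 0.07 SE (Ifngr2, adjusted p = 0.00301 by edgeR) and 0.39 ± 0.11 SE (Ifngr1, adjusted p = 0.0263 by edgeR). The call of Ifngr1 ended without Control for Post T library 1 or 4 or Post T library 2 or 3 (edgeR adjusted p = 0.059, 0.0908, 0.0562 and 0.0974). With limma on log2(TPM + 1) the calls of Ifngr2 and Ifngr1 ended (adjusted p = 0.0793 and 0.0791), and that of Ifngr1 also ended in the fit of 8 libraries (edgeR adjusted p = 0.0583). Ifng itself was too low to be tested, with 0 or 1 count per library in Control for Post T and 3 to 10 in Post T. The On T log2 fold change of Irf1 was 0.12 (edgeR adjusted p = 0.515).

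CD74 at the surface is also the receptor for the cytokine MIF and signals with CD44. Of 6 genes of this group 2 rose in Post T (median log2 fold change 0.39), and 1 fell in On T (median -0.01). Among all genes 7.49% were called higher in Post T and 9.27% were called in On T. Cd44 went from 24.7 ± 6.70 to 71.8 ± 6.42 CPM in Post T (SD, n = 4; log2 fold change 1.54 ± 0.19 SE, adjusted p = 2.21e-05 by edgeR) and from 32.7 ± 3.03 to 18.6 ± 4.78 CPM in On T (log2 fold change -0.82 ± 0.19 SE, adjusted p = 0.00985 by edgeR). The difference of effects was 2.35 (± 0.26 SE, adjusted p = 0.000508 by edgeR). The chemokine receptor gene Cxcr2 rose from 0.194 ± 0.167 to 0.687 ± 0.208 CPM in Post T (log2 fold change 1.82 ± 0.56 SE, adjusted p = 0.0414 by edgeR), near the level of 3 counts in a library (0.0570 to 0.113 CPM). Its call ended without Control for Post T library 1, 3 or 4 or Post T library 2, 3 or 4 (edgeR adjusted p = 0.0737 to 0.133).

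Class I genes, which are controlled by Nlrc5, a relative of Ciita, through related promoter boxes, offered a comparison inside the antigen presentation system. Of 9 tested, 6 rose in Post T (median log2 fold change 0.74), and in On T 1 rose and 1 fell (median 0.14). Among all genes 7.49% were called higher in Post T and 9.27% were called in On T. The light chain gene B2m went from 189 ± 11.3 to 406 ± 65.6 CPM in Post T (SD, n = 4; log2 fold change 1.10 ± 0.12 SE, adjusted p = 7.17e-06 by edgeR). In TPM the ratio of Cd74 to B2m was 0.506 to 0.748 in Control for Post T and 0.341 to 0.357 in Post T, with no overlap, and 0.382 to 0.606 in Control for On T and 0.293 to 0.445 in On T, with overlap. The heavy chain gene H2-D1 stood at 267 to 357 CPM in Control for Post T and at 718 to 1150 in Post T. These groups did not overlap, as in 9.62% of all genes tested on the higher side. In On T H2-D1 rose by 0.55 on the log2 scale (± 0.16 SE, adjusted p = 0.0373 by edgeR), a call that ended in 9 of 16 alternatives. Among them was leaving out any library except Control for On T library 1 and On T library 3 (edgeR adjusted p = 0.0606 to 0.125). Whether H2-D1 shares reads with related class I genes was not measured here, so its level is uncertain.

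Library totals ranged from 26598055 to 52659637 expected counts. Every one of the 7 genes was counted in each library, at 66 counts or more, so the floor of 3 counts did not limit them. The 8 markers of follicles and oocytes were present in all groups, at summed levels of 1710 to 5390 CPM, with median log2 fold changes of 0.04 in On T and 0.09 in Post T.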

How the data were processed

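Poly(A) RNA of 16 ovaries was sequenced as paired ends with a directional kit, per the labels' protocols. Reads were handled with STAR 2.7.8a, RSEM 1.3.3, cutadapt 2.3 and FastQC 0.11.8 on build GRCm38, as the submitters' processing notes list them with no order. The authors deposited expected counts, which are RSEM's unnormalised estimates per gene and were whole numbers here, and TPM values, which their tool had scaled for gene length and library size. The FPKM table was left out. The sources used here do not give the annotation release. One library per mouse was the replicate.

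Expected counts were rounded and fitted with edgeR 4.0.16 in R 4.3.3 after filterByExpr (minimum count 10) and TMM scaling. All 16 libraries shared a fit with a mean per group, which gave a common biological coefficient of variation of 0.179. The quasi-likelihood F test was adjusted over the 18833 genes by Benjamini-Hochberg. SE is the fold change over the root of its F. Exact permutation tests over libraries (4 against 4) used log2 TPM ratios, and relations with Ciita used 100000 permutations within groups (SciPy 1.17.1). Alternatives were DESeq2 1.42.0, limma 3.58.1 on log2(TPM + 1), median-of-ratios scaling, other filters (none, or 1 CPM in 4 libraries), fits of 8 libraries, the replicate number as a block, age as a covariate, and each library left out. Another, without both On T library 2 and Control for Post T library 1, was chosen after seeing the data. Tests were tried on simulated data with known answers.

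The members and the gene lists were chosen with earlier results of these data known. From each list the text names up to 4 genes with the smallest p in On T or Post T (marker lists, in Post T), every other class II gene, and the 8 and 5 genes most like the class II genes and Ciita. Some genes that this rule selects are not reported here. H2-Ea is listed as H2-Ea-ps. Positions are from GENCODE for GRCm38, where 99.5% of identifiers were found.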

Additional observations from a re-analysis of the deposited data

Results flagged for a closer look

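H2-DMb1 was marked for a second look because its effect of testosterone differed between the time of treatment and the time after it. Its log2 fold change was 0.02 in On T and 0.86 in Post T, a difference of 0.84 (adjusted p = 0.0442 by edgeR's interaction contrast). All 4 Post T libraries were above their controls, as in 9.62% of all genes tested, while the On T libraries overlapped theirs. The cohorts also differ in age, which cannot be told apart from the time since treatment. The difference passed the threshold in 6 of 23 alternatives and missed it in 17, with the same sign in each. Groups of 4 libraries were also searched for a library far from the others, in 28 tests over the 7 genes, and none passed Dixon's critical value.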

How the results depend on the processing

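Of 504 values of the 7 genes under an alternative, 469 kept their direction and side of the threshold, 27 kept the direction and lost the call, and 8 changed sign. The Post T call of H2-DMb1 held in all alternatives run. The Post T count of called genes was 1 in place of 2 with no filter on low counts, with the replicate block, with only the 8 libraries compared and with limma on log2(TPM + 1), and 1 to 2 when libraries were left out one at a time. For the difference of effects the count was 0 in place of 1 with median-of-ratios size factors, no filter, the replicate block and limma, and 0 to 1 when libraries were left out. With the replicate block the edgeR adjusted p in Post T was 0.052 for H2-DMa and 0.0585 for Cd83. Deviations of same-numbered libraries correlated at -0.0194 to 0.13 (On T and controls) and 0.0422 to 0.233 (Post T and controls). Differently numbered libraries were not set beside them, so these values cannot tell whether the numbers pair the samples. The On T counts and those of the controls stayed at 0. Leaving out On T library 2 and Control for Post T library 1 together turned the On T log2 fold change of H2-DMa to -0.0425 and of H2-DMb1 to -0.0632. With single libraries left out, the On T log2 fold change ranged from -0.31 to 0.0165 for Cd74, -0.197 to 0.116 for H2-Aa, -0.0465 to 0.193 for H2-DMa and -0.0678 to 0.15 for H2-DMb1. The log2 ratio of Ciita to Cd74 ranged from -0.215 to 0.00596 in On T and from -0.0734 to 0.186 in Post T. None of the values that changed sign had been called. The cause was not tested. The exact test on ratios cannot go below 0.0571 with a library left out. Ciita has the fewest counts of the 7 genes, with 66 to 277 per library.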
